A study of Mus musculus with 7 samples.

Results

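Classic target genes of estrogen receptor α (ERα) were examined for binding of estrogen receptor β (ERβ) in mouse ovary. The 10 genes were Greb1, Pgr, Rara, Xbp1, Myc, Ccnd1, Ltf, Muc1, C3 and Ctsd, which are known as estrogen-response genes from uterus and breast, among 21755 protein-coding genes on the autosomes and chromosome X. Whole ovaries of C57BL/6J mice that express ERβ endogenously gave 3 ERβ ChIP libraries, made with the mouse monoclonal antibody PPZ0506, and 2 inputs, which are sheared chromatin that did not go through immunoprecipitation. Each ChIP replicate was a separate pool of ovaries from wild-type mice of mixed age, juvenile to adult, that were not staged for the estrous cycle and for which no hormone treatment is named. Samples from ERβ knockout ovaries, of which there are 2, are not analysed here, so specificity of the antibody at these genes was not checked. ChIP-seq of a whole organ does not show which ovarian cell type carried the signal, and the tissue label could not be checked against marker genes because the files hold no RNA.

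ERα and ERβ are ligand-activated nuclear receptors with closely related DNA-binding domains. Both bind as dimers to the estrogen response element (ERE), a palindrome of GGTCA and TGACC separated by 3 free bases. ERα mediates the estrogen response of uterus and mammary gland, whereas ERβ is the main estrogen receptor of ovarian granulosa cells, the cells that surround the oocyte and make estradiol. Genes known as ERα targets therefore pose the question of which are also bound where ERβ is the main receptor.

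A locus was the gene body with 50 kb on each side. An ERβ-binding site was a stretch of 200-bp windows in which at least 2 of 3 ChIP libraries exceeded 4 times the mean of the 2 inputs, with the input set to no less than its genome mean, and it was placed at the window of highest mean fold. By this rule 6 of 10 genes had a site and 4 had none, where 27.5% of all protein-coding loci had one. Greb1 had 6 sites, Rara 3, Xbp1 and Ltf 2 each, and Myc and Pgr 1 each, 15 in all. Muc1, C3, Ccnd1 and Ctsd had no site. The searched loci were of ordinary size, with a median of 118 kb against 117 kb over all protein-coding genes, and Greb1, at 230 kb, was the longest. They held 11.3 sites per Mb, or 8.18 without Greb1, where the genome held 1.90 per Mb. The genome value includes regions far from genes, and the density over all protein-coding loci was not computed.

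The sequences of 7 sites are shown as examples of strong and weak binding. They are from GRCm38, plus strand, 5′ to 3′, with the best match to the ERE in capitals. The first 4 are the strongest sites of Greb1 and Rara with the site at the perfect ERE of Greb1 and the weaker site of Xbp1, and the last 3 are the strongest sites of Ltf, Myc and Pgr.
Greb1 strongest site (chr12:16790461-16790660): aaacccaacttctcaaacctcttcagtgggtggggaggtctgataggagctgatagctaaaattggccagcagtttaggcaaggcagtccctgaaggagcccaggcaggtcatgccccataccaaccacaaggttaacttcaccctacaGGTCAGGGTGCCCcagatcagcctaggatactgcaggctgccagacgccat
Greb1 perfect ERE (chr12:16760471-16760670): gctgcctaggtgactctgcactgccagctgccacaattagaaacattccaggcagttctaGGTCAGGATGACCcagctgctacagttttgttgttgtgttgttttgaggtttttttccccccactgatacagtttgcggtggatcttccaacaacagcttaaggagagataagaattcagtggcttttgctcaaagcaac
Rara strongest site (chr11:98955491-98955690): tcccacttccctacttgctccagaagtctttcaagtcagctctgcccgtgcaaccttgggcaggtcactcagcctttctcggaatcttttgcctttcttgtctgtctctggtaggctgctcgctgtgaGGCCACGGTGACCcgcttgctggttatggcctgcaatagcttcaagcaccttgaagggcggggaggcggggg
Xbp1 weaker site (chr11:5533111-5533310): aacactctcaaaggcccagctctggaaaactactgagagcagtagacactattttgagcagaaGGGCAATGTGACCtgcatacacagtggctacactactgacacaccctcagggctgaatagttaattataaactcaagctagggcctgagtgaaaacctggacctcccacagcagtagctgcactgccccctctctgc
Ltf strongest site (chr9:111001891-111002090): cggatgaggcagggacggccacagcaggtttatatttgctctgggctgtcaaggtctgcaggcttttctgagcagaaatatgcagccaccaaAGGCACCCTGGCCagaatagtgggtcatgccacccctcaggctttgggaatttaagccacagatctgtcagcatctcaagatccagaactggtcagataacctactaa
Myc site (chr15:62000931-62001130): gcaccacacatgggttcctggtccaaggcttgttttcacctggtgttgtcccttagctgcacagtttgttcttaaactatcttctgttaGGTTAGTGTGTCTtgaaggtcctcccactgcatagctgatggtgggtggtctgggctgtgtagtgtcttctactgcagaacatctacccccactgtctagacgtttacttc
Pgr site (chr9:8970431-8970630): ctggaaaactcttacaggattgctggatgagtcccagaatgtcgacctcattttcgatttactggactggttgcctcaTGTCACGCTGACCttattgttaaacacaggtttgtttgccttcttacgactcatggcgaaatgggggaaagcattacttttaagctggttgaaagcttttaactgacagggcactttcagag
Counted from 1 at the 5′ end of the 13-base element, the strongest Greb1 site differs from the consensus by A11C, the strongest Rara site by T3C, the weaker Xbp1 site by T3G and the Pgr site by G1T. The strongest Xbp1 site, not shown, has an ERE with 2 mismatches, so strong binding was not limited to EREs with 0 or 1. The best matches at the strongest Ltf site and the Myc site have 3 mismatches each, so an ERE at the definition used here, at most 2 mismatches in the 10 fixed bases, was not present in these windows.

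The libraries were alike in scale. Total normalised signal was 928 to 948 M per library, and the genome mean was 0.362 to 0.370, so a value of 0.36 in the following is the genome average. The tracks hold scaled signal and not the number of tags behind a value, so no counting error is attached to any value. Whether the 2 inputs came from separate pools is not given in the sources used here, so for them errors may be technical.

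The strongest window of each locus ordered the genes. Rara led with a mean fold over input of 46.7 ± 7.58 (SD, n = 3), Greb1 followed with 33.0 ± 5.30 and Xbp1 with 26.2 ± 5.87. Ltf reached 11.2 ± 3.34, Myc 5.99 ± 0.775 and Pgr 3.95 ± 0.965. The order of these 6 genes was the same in each of the 3 ChIP libraries, and among neighbours in it only the ranges of Greb1 and Xbp1 overlapped between libraries. Below the threshold, Muc1 had 2.48 ± 1.30, Ccnd1 1.92 ± 0.688, C3 1.91 ± 1.18 and Ctsd 1.87 ± 0.979, and these 4 did not differ beyond their spread. Pgr was thus the gene just inside the rule, with 2 of 3 libraries over 4-fold, and Muc1 the gene just outside it, with none.

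**Figure D1:**
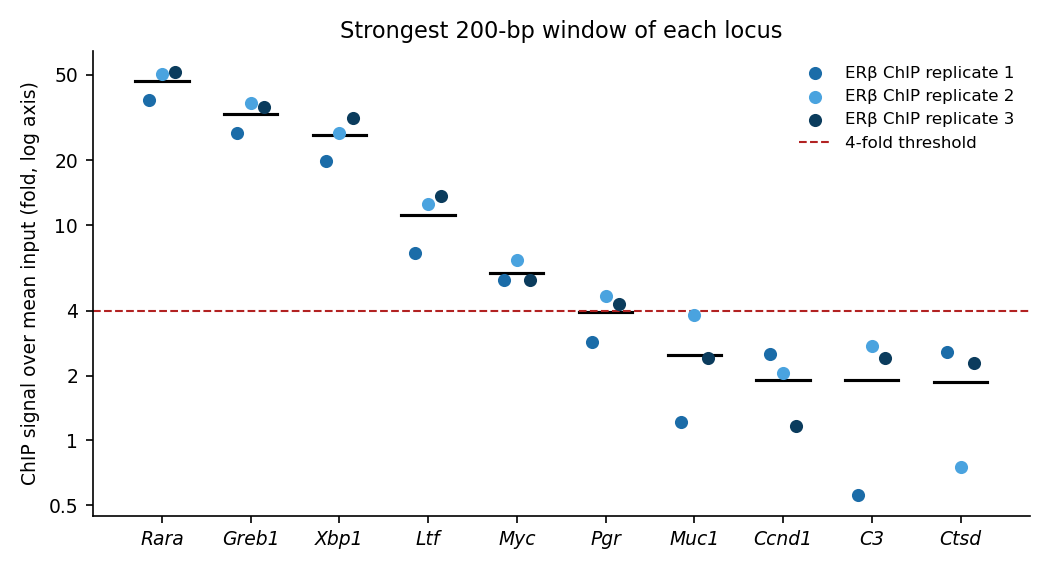
ChIP signal over the mean of the 2 inputs (fold, log axis) in the strongest 200-bp window of each locus, for the 3 ERβ ChIP libraries (points) with their mean (bar). Rara, Greb1, Xbp1, Ltf and Myc lie above the dashed 4-fold line in every library, Pgr in 2 of 3, and Muc1, Ccnd1, C3 and Ctsd in none.

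The highest window of a long locus is high partly by selection. The window was therefore also chosen on 2 ChIP libraries and read in the one left out. Held-out folds were 46.7 ± 7.58 for Rara, 33.0 ± 5.30 for Greb1, 26.2 ± 5.87 for Xbp1, 11.2 ± 3.30 for Ltf, 5.95 ± 0.808 for Myc and 3.42 ± 0.833 for Pgr (SD, n = 3). In the other 4 loci they were 1.49 ± 0.819 for Muc1, 0.941 ± 0.200 for Ccnd1, 0.778 ± 0.456 for C3 and 0.603 ± 0.163 for Ctsd. The first 6 moved by less than 1 SD, whereas the means of C3, Ccnd1 and Ctsd were below the input level, with 1 of 3 libraries above it for C3 and for Ccnd1 and none for Ctsd.

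**Figure D2:**
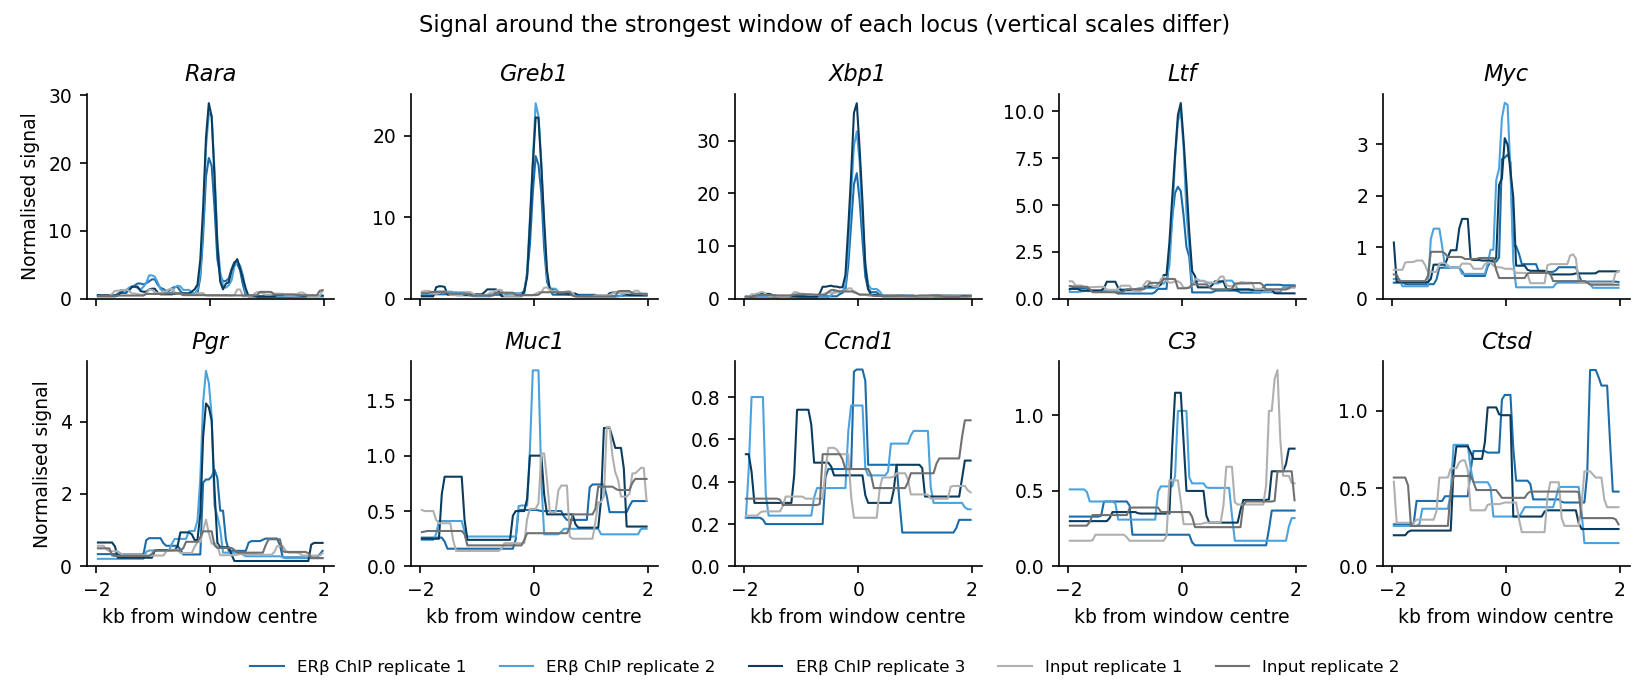
Normalised signal in 50-bp steps within 2 kb of the strongest window of each locus, for 3 ERβ ChIP libraries (blue) and 2 inputs (grey), with a separate vertical scale for each gene. Rara, Greb1, Xbp1, Ltf, Myc and Pgr show a peak shared by the ChIP libraries, and Muc1, Ccnd1, C3 and Ctsd show signal of about the height of the inputs nearby.

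Greb1 encodes a chromatin-bound cofactor of ERα and is among the most estrogen-responsive genes of breast cancer cells. Its body lies on the minus strand of chromosome 12 (chr12:16670615-16800886), and 5 of its 6 sites were inside it, between 10.1 and 47.3 kb downstream of the transcription start site (TSS) of its longest transcript. At the strongest site, in intron 1 of 34, signal was 13.4, 18.3 and 17.5 in ChIP replicates 1, 2 and 3, against 0.551 and 0.442 in the inputs. At the site with the perfect ERE, in the same intron, it was 17.9, 23.7 and 25.1 against 1.41 and 0.890. All 3 libraries passed 4-fold at each, which by itself places ChIP above both inputs.

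The other sites in the Greb1 body were graded. At chr12:16764811-16765010, also in intron 1, signal was 23.2, 28.2 and 33.3 against 1.18 and 1.07, a fold of 25.0 ± 4.50 (SD, n = 3). The site in intron 3, chr12:16753291-16753490, had 9.93, 11.2 and 8.97 against 0.719 and 0.730, a fold of 13.9 ± 1.57. The weakest of the 5, chr12:16778681-16778880, had 6.47, 5.16 and 6.23 against 0.849 and 0.510, a fold of 8.76 ± 1.03. All 5 sites in the body were over 4-fold in 3 of 3 libraries. Of these 5 sites, 1 had a perfect ERE and 3 had an ERE with 1 mismatch, while the best match at the intron 3 site had 3 mismatches.

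The sixth site, chr12:16810961-16811160, was of another kind. It lay outside Greb1, 83 bp from the TSS of E2f6, a repressor of the E2F family, in the first, untranslated exon of that gene. Signal was 2.50, 4.29 and 6.52 against 1.03 and 1.11 in the inputs, and only replicates 2 and 3 passed 4-fold, replicate 2 by a small margin at 4.01-fold. The site was not found without ChIP replicate 2, without ChIP replicate 3 or without Input replicate 1. At 74.5%, its GC content was the highest of the 15 sites, which otherwise went down to 44.0%.

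With 6 sites, Greb1 was at the far end of the distribution, as 0.147% of protein-coding loci had as many or more. The genes most like it by number of sites, with ties broken by the fold of the strongest site, were Adamts2, Pemt and Kirrel3 in this 1 tissue. Each had 6 sites, with strongest folds of 29.1, 26.7 and 23.6 in loci of 306, 176 and 651 kb.

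Rara encodes retinoic acid receptor α, a nuclear receptor that binds DNA with a retinoid X receptor partner. All 3 of its sites were in intron 3 of 9 (gene body chr11:98927818-98974942, plus strand). At the strongest, 17.9 kb downstream of the TSS of the longest transcript, signal was 17.9, 23.9 and 24.3 against 0.444 and 0.50 in the inputs. This was the sixth highest fold of all 4869 sites in the genome. A pair of sites lay upstream of it in the same intron. The stronger, chr11:98951691-98951890, had 10.9, 10.2 and 7.48 against 1.25 and 0.914, a fold of 8.81 ± 1.66, and was over 4-fold in 3 libraries. The weaker, chr11:98951211-98951410, had 4.23, 4.12 and 2.23 against 0.800 and 0.688, a fold of 4.74 ± 1.51, and passed in replicates 1 and 2. It was not found without either of these replicates. Of the 3, only the strongest had an ERE within 2 mismatches in its 200 bp.

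Pgr encodes the progesterone receptor, which granulosa cells need for ovulation. Its only site lay outside the gene body (chr9:8899833-8968611, plus strand), 70.7 kb downstream of its TSS, and the nearest protein-coding TSS was that of Gm16485 at 1.26 kb. Signal was 2.49, 4.07 and 3.76 against 0.868 and 0.873 in the inputs. The ChIP values were all above the inputs, but replicate 1, at 2.86-fold, was below the threshold, and the site was lost without replicate 2 or without replicate 3. The window has an ERE with 1 mismatch.

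Xbp1 encodes a transcription factor of the unfolded protein response. Its 2 sites lay downstream of the short gene body (chr11:5520659-5525893, plus strand), in and beside the neighbouring gene Ccdc117. The strongest, 21.7 kb from the Xbp1 TSS, was 193 bp from a TSS of Ccdc117, and signal there was 18.8, 25.4 and 29.8 against 0.921 and 0.967 in the inputs. The weaker, 12.6 kb from the Xbp1 TSS in the last intron of Ccdc117, had 5.61, 7.38 and 7.99 against 0.643 and 0.824, a fold of 9.54 ± 1.68. Both were over 4-fold in 3 libraries, and for both the nearest TSS was that of Ccdc117 and not of Xbp1.

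Myc encodes a transcription factor of growth and proliferation. The gene (chr15:61985391-61990374, plus strand) had 1 site, 15.6 kb downstream of the TSS of its longest transcript and outside any protein-coding gene. Signal was 2.73, 3.39 and 2.73 against 0.586 and 0.400 in the inputs, and all 3 libraries passed 4-fold. No other protein-coding gene lay in the searched locus. It was the only one of the 10 loci with no ERE at 0 or 1 mismatch.

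Ltf encodes lactoferrin, an iron-binding secreted protein that estrogen induces strongly in the uterus. Both sites lay upstream of the gene (chr9:111019271-111042767, plus strand). The stronger, 17.3 kb upstream of the Ltf TSS, was closer to the TSS of Rtp3, at 11.4 kb, and had signal of 4.72, 8.04 and 8.71 against 0.729 and 0.550. The weaker, chr9:111010591-111010790, 8.60 kb upstream, had 1.59, 2.06 and 1.88 against 0.390 and 0.260, a fold of 5.0 ± 0.642. Both were over 4-fold in 3 libraries, and the weaker had the lowest ChIP signal of the 15 sites. It has an ERE with 1 mismatch near its edge, and a window centred on that ERE had 3.65-fold.

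**Figure D3:**
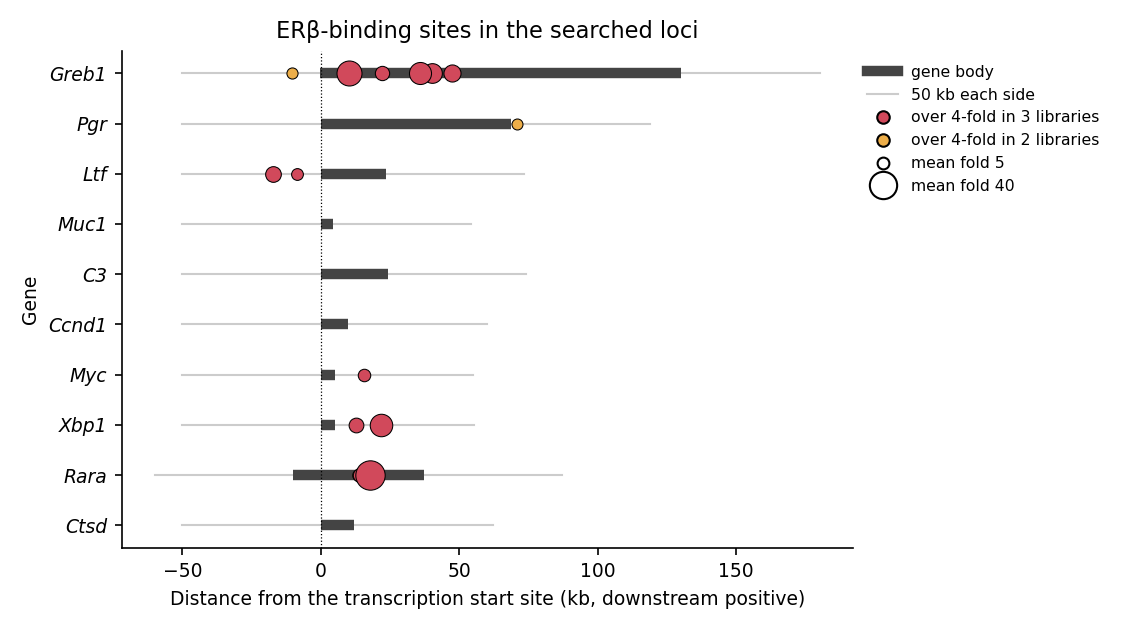
Position of the 15 ERβ-binding sites relative to the TSS of the longest transcript of each gene (kb, downstream positive), with the gene body as a dark bar and the searched 50 kb on each side as a grey line. Point area rises with mean fold and colour gives the number of libraries over 4-fold. The sites lie 8.60 to 70.7 kb from the TSS, and Muc1, C3, Ccnd1 and Ctsd have none.

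None of the 15 sites was within 1 kb of the TSS of the longest transcript of the gene searched. The closest was 8.60 kb away. Some sites were closer to another annotated TSS of the same gene. The Greb1 sites at the perfect ERE and in intron 3 were 3.33 and 3.8 kb from such a TSS, and the strongest Rara site 4.82 kb. Sites overlapped the body of 2 of 10 genes, Greb1 and Rara, where a site overlapped 8.96% of all protein-coding gene bodies. The nearest protein-coding TSS was that of the gene itself for 10 of 15 sites. By that assignment 4 genes (Greb1, Rara, Ltf and Myc) had a site, where 14.9% of protein-coding genes did. The other 5 sites were nearest to E2f6, Gm16485, Rtp3 and, for 2 of them, Ccdc117. Which gene a site acts on was not measured.

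The 4 genes without a site were of different kinds. Ccnd1 encodes cyclin D1, which drives entry into the cell cycle. Its highest window lay 49.0 kb upstream, at the edge of the searched region, with signal of 0.928, 0.760 and 0.430 against 0.230 and 0.460, so the groups overlapped. Muc1 encodes a mucin of epithelial surfaces, and in its highest window, 27.5 kb upstream, signal was 0.509, 1.59 and 1.00 against 0.533 and 0.300. In Muc1 the ChIP values overlapped with the inputs, and replicate 2 alone reached 3.83-fold.

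C3 encodes the central component of complement and is induced by estrogen in uterine epithelium. In its highest window, 62.5 kb downstream of its TSS, signal was 0.210, 1.03 and 0.906 against 0.390 and 0.360, so ChIP replicate 1 was below both inputs. Ctsd encodes the lysosomal protease cathepsin D, and its highest window, in intron 2 of Ifitm10, had 1.09, 0.320 and 0.970 against 0.409 and 0.440. There replicate 2 was below both inputs. Segments of the tracks had a median length of 269 to 519 bp, over which low signal is averaged, and weaker binding may not be detectable in them.

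The absence of a site held for the distance searched. With 100 kb on each side, Ctsd had 3 sites and Muc1 had 1, while C3 and Ccnd1 still had none, and 40.4% of protein-coding loci then had a site. The Muc1 site, 76.4 kb from its TSS, had a fold of 5.04 ± 0.668 and was 17.5 kb from the nearest TSS, that of Efna3. The 3 Ctsd sites had folds of 4.95 ± 0.774, 5.14 ± 1.67 and 6.02 ± 2.06 (SD, n = 3) and were nearest to Gm4559, Krtap5-4 and Lsp1, the last 1.34 kb from its TSS.

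Signal in 1-kb windows was compared between ChIP and input across the genome with limma on log2(signal + 0.5). Of 1323 windows tested in the 10 loci, 11 were higher in ChIP at an adjusted p under 0.05, or 6 in Greb1, 2 each in Rara and Xbp1 and 1 in Ltf. Over all 2430658 windows, 0.0957% were higher. Without the filter on low signal, only 2 windows in the loci were higher, and 521 of 2633768 over the genome. None in the 10 loci was lower, with 0.00267% lower over all windows. Without adjustment 21 of the 1323 were higher and 140 lower at p under 0.05. Of all 2430658 windows, 46256 were higher and 80924 lower by that measure. Without ChIP replicate 3, 4 windows in the loci and 683 over all windows were lower after adjustment. The median log2 difference was -0.10 in the loci and -0.01 over all windows. All 11 called windows overlapped a site, and 11 of 15 sites had their centre in one. Sites and windows were read from the same ChIP and input libraries, so this overlap is not separate support for the sites.

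The log2 difference was largest for Rara, at 2.78 ± 0.25 (SE, adjusted p = 8.76e-09) in the window of its strongest site. At the Greb1 sites it was 2.58 ± 0.27 (adjusted p = 1.38e-07), 2.52 ± 0.26 (1.19e-07), 2.31 ± 0.24 (8.09e-08), 1.97 ± 0.23 (6.89e-07) and 1.13 ± 0.20 (0.00205). For Xbp1 it was 2.48 ± 0.27 (adjusted p = 2.32e-07) at the stronger site and 1.41 ± 0.20 (4.04e-05) at the weaker. These calls in Rara, Greb1 and Xbp1 stood whichever library was left out, except the last Greb1 value, whose adjusted p was 0.152 without Input replicate 1 and 0.134 without Input replicate 2. The pair of weaker Rara sites shared a window, with 1.61 ± 0.24 (adjusted p = 1.04e-04). All these windows were picked for sites with high ChIP signal in the same libraries, so their upward direction was given by the choice.

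For Ltf the call was less firm. The window of its stronger site had signal of 1.52, 2.20 and 2.39 against 0.757 and 0.733 and a log2 difference of 1.01 ± 0.20 (adjusted p = 0.0153). The adjusted p was 0.293 without ChIP replicate 2, 0.397 without Input replicate 1 and 0.576 without Input replicate 2. The sixth Greb1 window, next to the site of 25.0-fold, behaved alike, with 1.06 ± 0.22 (adjusted p = 0.0179) and 0.288, 0.376 and 0.805 without the same libraries.

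The 4 sites in windows that did not pass were those of Pgr and Myc, the weaker site of Ltf and the site at E2f6. Their log2 differences were 0.81 ± 0.18 (SE, adjusted p = 0.0732) for Pgr, 0.46 ± 0.16 (0.851) for Myc, 0.50 ± 0.15 (0.536) for Ltf and 0.72 ± 0.20 (0.422) at E2f6. A window of 1 kb averages a peak of 200 bp with its surroundings. These windows were picked for sites with high ChIP signal in the same libraries. Their upward direction was thus given by the choice and adds no support, and none passed the test. For Pgr, leaving out ChIP replicates 1, 2 and 3 in turn gave adjusted p-values of 0.0239, 0.574 and 0.0711, and leaving out Input replicates 1 and 2 gave 1 and 0.829. In the loci without a site the smallest adjusted p of a higher window was 0.946 to 0.967.

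The promoters of the longest transcripts carried no excess of ChIP signal, and other TSSs of these genes were not tested. Within 500 bp of the TSS, the 3 ChIP libraries were above both inputs at 0 of 10 genes, and mean ChIP over mean input was 0.696 for Myc to 0.946 for Greb1. For Greb1 signal was 0.456, 0.667 and 0.962 in ChIP and 0.802 and 0.668 in input, and for Rara 0.549, 0.654 and 0.904 against 0.996 and 0.685. The exact one-sided permutation p for higher ChIP signal was 0.6 to 1 over the 10 genes, and 1 for all after adjustment. With 3 against 2 libraries, the smallest p possible is 0.1. Among the ChIP libraries, replicate 3 was the highest at 8 of 10 promoters and replicate 1 the lowest at 8 of 10, the order also seen at the E2f6 site.

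**Figure D4:**
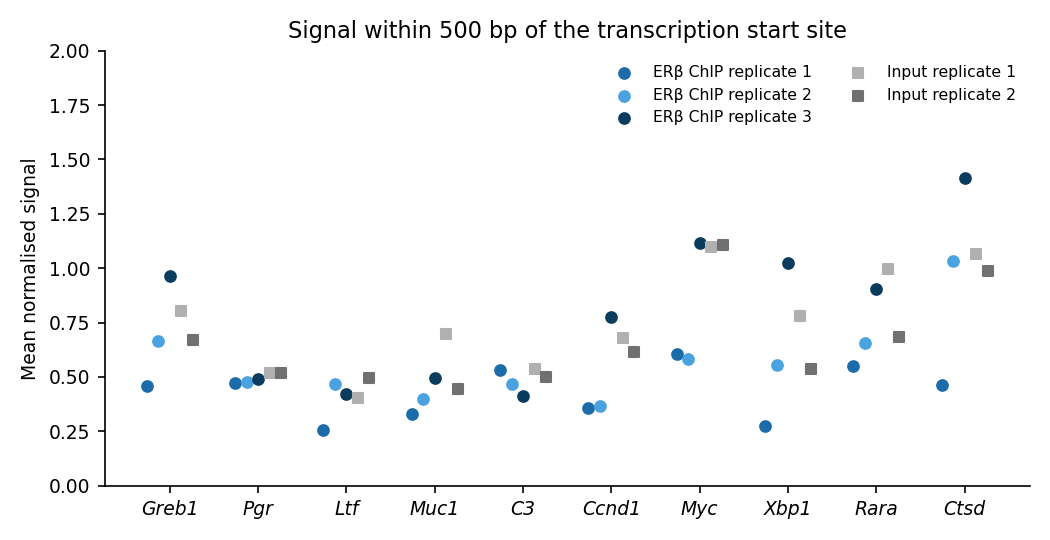
Mean normalised signal within 500 bp of the TSS of the longest transcript of each gene in 3 ERβ ChIP libraries (circles) and 2 inputs (squares), on a linear axis from 0. ChIP and input points overlap or ChIP lies lower, and no gene has all 3 ChIP libraries above both inputs.

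Averaged over the whole locus, ChIP signal did not stand above input. All 3 ChIP libraries were above both inputs in 0 of 10 loci, and the exact one-sided permutation p was 0.3 for Greb1 and Pgr and 0.6 to 1 for the others. In Greb1, with 6 sites, mean ChIP signal was 0.580 ± 0.0573 (SD, n = 3) and mean input signal 0.550 ± 0.0272 (SD, n = 2). In 4 loci, those of Ltf, Muc1, Myc and Ctsd, all 3 ChIP libraries were below both inputs. Over gene bodies alone Rara was the only gene of 10 with all 3 ChIP libraries above both inputs, at 0.721, 0.804 and 0.846 against 0.720 and 0.662. Its exact one-sided permutation p was 0.1, the lowest value this test can give, and it did not pass after adjustment. The body holds the 3 Rara sites, picked for high ChIP signal in the same libraries, so this is not separate support for binding.

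EREs were more frequent in the loci than binding was. The 10 loci held 53 EREs with at most 1 mismatch, 3 of them perfect. Of these 53, 7 (13.2%) were over 4-fold in at least 2 ChIP libraries, where 2.25% of the 72460 such EREs of the genome were. The 7 were 4 in Greb1 and 1 each in Rara, Xbp1 and Pgr. The remaining 46 had no binding by this rule, among them 5 in Muc1, 4 each in C3 and Ccnd1 and 7 in Ctsd, and the highest mean fold among these 20 was 1.23.

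A perfect ERE was bound in one place and not in others. GGTCAGGATGACC in intron 1 of Greb1 (chr12:16760531-16760543) had a fold of 18.7 ± 3.12 in a window centred on it (SD, n = 3). GGTCATGATGACC, 47.5 kb upstream of Greb1 (chr12:16848129-16848141), had signal of 0.775, 0.798 and 0.761 in ChIP and 0.905 and 0.510 in input, a fold of 1.10 ± 0.0264. GGTCAACTTGACC, 2.59 kb upstream of Muc1 (chr3:89226461-89226473), had 0.233, 0.800 and 0.686 against 0.592 and 0.530, a fold of 1.02 ± 0.535. ChIP and input values overlapped at the latter EREs. Over the genome 12.4% of 2357 perfect EREs were over 4-fold in at least 2 libraries.

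**Figure D5:**
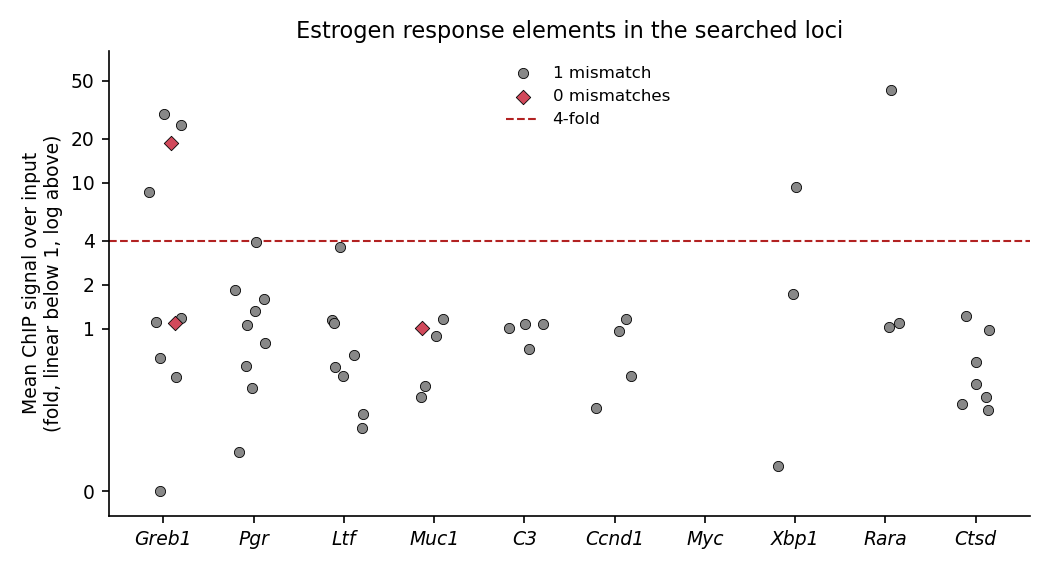
Mean ChIP signal over input (fold, linear below 1 and log above) in 200-bp windows centred on the 53 EREs with 0 (diamonds) or 1 (circles) mismatch in the 10 loci, spread sideways for visibility. Only EREs of Greb1, Rara and Xbp1 lie above the dashed 4-fold line by their mean, the Pgr ERE lies just under it, and Myc has no such ERE.

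At the 15 sites, 10 (66.7%) had an ERE with at most 2 mismatches within 200 bp, 8 (53.3%) one with at most 1 and 1 a perfect ERE. Over all 4869 sites these shares were 67.9%, 33.0% and 6.33%, and over 12796535 windows of 200 bp tiling the genome 6.68%, 0.529% and 0.0175%. The sites without such an ERE were the intron 3 site of Greb1, the stronger Ltf site, the Myc site and the weaker pair of Rara. Other motifs were searched on both strands without mismatch. The NR5A motif (TCAAGGTCA or CCAAGGTCA), bound by steroidogenic factor 1 and LRH-1, was found at 0 of 15 sites and 7.15% of all sites. These exact words are a narrower measure than the motif of the study. With HOMER the study reported NR5A at a far larger share of its sites. It also reported an ERE with an NR5A motif in intron 1 of Greb1, so 0 of 15 does not mean that the wider motif was absent. AP-1 (TGACTCA or TGAGTCA) and FOXO (TGTTTAC) were also found at 0 of 15, with 6.63% and 4.77% of all sites. The GATA motif, searched as AGATAA and also as TGATAA, was found at 3 of 15 and at 29.7% of all sites. None of the 15 sites was covered by soft-masked repeats over 50% or more of its length.

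A wider list of 24 estrogen-response genes was read the same way. Of these, 12 of 24 had a site, 16 sites in all, beside the 27.5% of all protein-coding loci. The list was chosen with earlier results of these data known, so the difference in share is not independent support. Nrip1, which encodes a corepressor of nuclear receptors that the ovary needs for ovulation, had 5, and its strongest, in intron 3, had signal of 23.6, 28.4 and 29.4 against 1.04 and 0.900. Vegfa, the angiogenic growth factor, had a site of 25.0 ± 3.26-fold in intron 2, Tgfa, a ligand of the epidermal growth factor receptor, one of 20.6 ± 7.55-fold in intron 1 and Sgk1, a serine/threonine kinase, one of 20.1 ± 4.27-fold at 38.1 kb from its TSS (SD, n = 3). Igf1, Fos, Ramp3, Car12, Wnt4, Bcl2, Rerg and Hspb8 had 1 site each. The Wnt4 site lay in an intron of Cdc42 and the Hspb8 site in an intron of Srrm4, and these neighbours had the nearest TSS. The other 12, among them Tff1, Areg, Igfbp4 and Igfbp5, had none.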

How the data were processed

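ERβ ChIP-seq signal and input were analysed in mouse ovary. According to the study's methods and processing notes, the authors aligned reads with STAR to GRCm38 (mm10) with splicing off, kept unique reads and made tracks with HOMER. The deposited values are signal, that is coverage scaled by the authors to the same total in every library, with 1 track per library. Treatment of duplicates and the fragment length set for the tracks were not given in the sources used here. The study gives the number of aligned reads per ChIP library, which was not used here because the tracks are scaled and do not hold tag counts.

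Tracks were read into 10-bp bins on the autosomes and chromosome X, with gene models from GENCODE vM21. Chromosome ends in the tracks lay within GRCm38. Windows of 200 bp at steps of 10 bp that passed 4-fold in 2 ChIP libraries were joined where centres were within 200 bp. For the 10 genes, the TSS was that of the longest protein-coding transcript. The nearest TSS of a site, and any distance to another gene, was taken over all protein-coding transcripts. EREs were searched as GGTCANNNTGACC. The sequence of the strongest Xbp1 site is not reported here. The 1-kb windows with a mean signal of at least 0.1 were tested with limma 3.58.1 (R 4.3.3), 3 ChIP libraries against 2 inputs, on log2(signal + 0.5), which understates changes at low signal, with Benjamini-Hochberg adjustment over all windows. Single values were compared by exact permutation, adjusted over the 10 genes. Arithmetic was done in Python 3.11.15 with numpy 2.4.6. The site caller, ERE search and limma fit were tested on simulated data.

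All 10 genes were described, every site up to 5 per gene and the highest window where there was none; the sixth Greb1 site, outside this rule, was added after its values were seen. The genes, lists and tests were chosen with earlier results of these data known. Alternatives covered the fold threshold, window, floor, inputs, flank, libraries, pseudocount and filter. Track names carry a prefix in ChIP replicates 2 and 3 and Input replicate 2 and none in the others. What the prefix stands for is not given in the sources used here.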

Additional observations from a re-analysis of the deposited data

How the results depend on the processing

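Of 110 repeats of the results under other settings, 93 stayed within 1.5 times for a count or within 1 SD between libraries for a fold, and 17 did not. The number of genes with a site was 4 to 6 and the number of sites 10 to 15 under the fold thresholds of 3 and 8, windows of 100 and 400 bp, tiled windows, all 3 ChIP libraries, other input floors and added local criteria. The share of all protein-coding loci with a site changed with these settings. It was 37.55% at 3-fold, 11.46% at 8-fold, 20.09% with all 3 ChIP libraries and 19.42% with windows of 400 bp. With only the nearest TSS or a flank of 10 kb there were 10 and 11 sites in 4 and 5 genes, with a flank of 100 kb 20 in 8, and without any flank 8 in 2. The shares over all protein-coding genes were 14.87%, 13.57%, 40.39% and 8.96% in the same order. Leaving out each library gave 12 to 15 sites in 5 or 6 genes, where 21.14% to 30.41% of all protein-coding loci had a site. Pgr was the gene lost, without ChIP replicate 2 or 3. Muc1, C3, Ccnd1 and Ctsd had no site under any setting but the flank of 100 kb. Windows of 1 kb higher in ChIP numbered 8 to 12 when a library was left out, 10 and 12 at pseudocounts of 1 and 0.1, 11 with the track-name prefix as a term and 2 without the filter on low signal. Over all windows the counts were, in the same order, 1009 to 2541, 2012 and 2482, 2251 and 521. Lower windows in the loci numbered 0 in these fits except without ChIP replicate 3, so 0 to 4. Without that replicate 683 were lower over all windows. With the replicate block, 13 in the loci were higher and 9 lower, where 3428 and 3209 of all 2430658 windows were. ChIP and input libraries shared only a number, and deviations of same-numbered libraries correlated at 0.0362 and -0.0111. The strongest fold changed with window length, at 100 bp to 39.7 for Greb1 and at 400 bp to 21.2 for Greb1, 7.62 for Ltf, 4.25 for Myc, 17.3 for Xbp1 and 28.3 for Rara. For Myc it was 5.04 with Input replicate 1 alone and 7.38 with Input replicate 2 alone. Held-out folds were 0.941 for Ccnd1 and 0.603 for Ctsd, and those of C3 and Muc1, 0.778 and 1.49, were also over 1.5 times lower than 1.91 and 2.48 but within their wide SD. An ERE with no mismatch was at 1 site, against 10 with at most 2 mismatches. Over gene bodies without flank, 1 gene (Rara) had all ChIP libraries above both inputs. The cause of these changes was not tested. The scaled tracks do not show how many tags a value rests on, so binding below the threshold at the genes without a site was not assessed.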
